A study of Mus musculus with 12 samples.

Results

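Eno1b, Upp1, Catsperg2, Nr1h5, Tdpx-ps1 and Pcna-ps2 are 6 of the 46078 genes in the count table of newborn mouse skin epidermis. They were chosen by their symbols because each was near absent in either the Llgl-deleted or the Llgl-intact libraries. The counts of that contrast therefore chose them, and their levels across it are given as a description with no test. All 6 passed the filter on low counts, which each could pass through the state where it was high. Eno1b and Upp1 were high where Llgl was intact, and the other 4 were high where Llgl was deleted.

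The study measured polyadenylated RNA in 12 libraries, 3 newborn mice in each of 4 genotype groups. Llgl cKO Trp53 het mice (K14-Cre with Llgl1/2 flox/flox and Trp53 +/flox) carried floxed alleles of Llgl1, Llgl2 and a single Trp53 allele, Llgl cKO mice (K14-Cre/Llgl1/2 flox/flox) those of Llgl1 and Llgl2, and Trp53 het mice (K14-Cre/Trp53 +/flox) that of Trp53. Control mice (K14-Cre) carried the Cre transgene with no floxed allele named, so K14-Cre was present in all 12 libraries. The K14 promoter drives Cre recombinase in basal keratinocytes, and the suprabasal and follicle keratinocytes that descend from them inherit the recombined alleles, while cells of other lineages do not. Strain background and litter were not given in the sources used here. The 6 libraries of both Llgl cKO groups are called Llgl-deleted libraries below, and those of the Trp53 het and control groups Llgl-intact libraries. Libraries held 6738720 to 14509507 counts. Levels are in CPM, read counts scaled to library size with TMM factors, with SD over mice.

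Llgl1 and Llgl2 are the mouse counterparts of lethal giant larvae, a polarity gene of Drosophila. Llgl2 fell to 8.42 ± 2.26 CPM in Llgl-deleted libraries, against 88.7 ± 19.9 in Llgl-intact libraries (SD, n = 6 each; log2 fold change -3.40, edgeR quasi-likelihood test with Benjamini-Hochberg adjustment, adjusted p = 9.55e-06). Llgl1 transcript rose to 235 ± 36.0 CPM, against 136 ± 20.4 (log2 fold change 0.79, adjusted p = 0.00723); counts per gene do not show which exons are missing. Trp53 averaged 77.3 ± 18.2 CPM in Llgl cKO Trp53 het and 118 ± 5.49 in Llgl cKO, and 79.1 ± 30.8 in Trp53 het and 121 ± 10.97 in control (SD, n = 3 each), with Trp53 het 3 at 115 CPM inside the control range. The 7 basal keratinocyte markers summed to 15310 to 21391 CPM in Llgl-deleted libraries and 17014 to 20397 CPM in Llgl-intact libraries, and 0 were called by edgeR and 0 at an unadjusted p below 0.05. Control 3 and Trp53 het 3 deviated together from their group means, with a correlation of 0.82 across genes, and list counts that change without them are given both ways. In the average effect of Llgl deletion over both Trp53 genotypes, 485 of 14582 tested genes (3.33%) were called at an adjusted p below 0.05, 172 higher (1.18%) and 313 lower (2.15%). The count was 164 to 697 with a single library left out and 2334 without control 3 and Trp53 het 3. Unadjusted edgeR p-values in this effect were below 0.05 for 2661 of the 14582 genes.

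A retrogene or processed pseudogene is a copy of a spliced transcript that was inserted back into the genome, without the introns of its parent gene and usually without its promoter. Whether such a copy is transcribed depends on where it landed, and its reads are hard to separate from those of the parent because the sequences are nearly the same. Eno1b is annotated as a retrogene of Eno1, the glycolytic enolase. Tdpx-ps1 and Pcna-ps2 are processed pseudogenes whose closest relatives are Prdx2, a peroxiredoxin that reduces peroxides, and Pcna, the sliding clamp of DNA replication. Catsperg2 is a protein-coding paralogue of Catsperg1, an auxiliary subunit of the sperm calcium channel CatSper. Upp1 encodes uridine phosphorylase, which splits uridine into uracil and ribose phosphate. Nr1h5 encodes the nuclear receptor FXR beta, which binds lanosterol in rodents and is a pseudogene in primates.

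The stretches below show examples of the differing bases by which a read can be assigned to a copy rather than its relative. Each is the 60-base coding window of the pair that holds the most differing bases, read from GENCODE M21 transcripts (GRCm38), 5′ to 3′ on the transcribed strand, and capitals mark the bases that differ. Pcna-ps2 is at chr19:9283509-9283568 on the plus strand, and Pcna at chr2:132252847-132252906 on the minus strand.
Pcna-ps2: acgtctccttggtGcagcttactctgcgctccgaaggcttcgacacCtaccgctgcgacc
Pcna: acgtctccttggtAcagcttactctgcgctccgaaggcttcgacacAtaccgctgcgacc
Tdpx-ps1 is at chr1:99790905-99790964 on the minus strand, and the Prdx2 window on the plus strand spans an intron between chr8 positions 84970303 and 84970453.
Tdpx-ps1: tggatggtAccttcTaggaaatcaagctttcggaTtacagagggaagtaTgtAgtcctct
Prdx2: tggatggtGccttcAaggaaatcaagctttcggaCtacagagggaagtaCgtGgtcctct
Catsperg2 is at chr7:29706543-29706602 and Catsperg1 at chr7:29191688-29191747, both on the minus strand.
Catsperg2: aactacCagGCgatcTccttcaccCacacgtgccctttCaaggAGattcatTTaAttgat
Catsperg1: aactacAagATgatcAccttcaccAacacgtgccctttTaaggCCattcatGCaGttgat
Counted from the 5′ end of the window and written as relative, position, copy, Pcna-ps2 differed by A14G and A47C, and Tdpx-ps1 by G9A, A15T, C35T, C50T and G53A. The Catsperg2 window differed at 11 bases.

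Over the whole aligned transcript, Pcna-ps2 and Pcna shared 99.2% of 781 bases (6 mismatches), Tdpx-ps1 and Prdx2 96.3% of 597 bases (22 mismatches), Catsperg2 and Catsperg1 96.1% of 3673 bases (129 mismatches), and Eno1b and Eno1 99.5% of 1652 bases (9 mismatches). Of all 50-base windows of each transcript, 15.5% for Eno1b, 36.2% for Pcna-ps2, 59.0% for Catsperg2 and 74.5% for Tdpx-ps1 occurred in no other annotated gene. With 100-base windows these shares were 26.6%, 63.1%, 79.3% and 87.8%. Upp1 and Nr1h5 had no relative with at least 90% identity over 500 bases, and 100% and 99.8% of their 50-base windows were unique. Levels of the 4 genes with a near-identical relative are uncertain to the extent that reads could be split between copies, since read length and the treatment of multiply mapped reads were not given in the sources used here.

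Eno1b (ENSMUSG00000059040; chr18:48045335-48048412, plus strand, GRCm38) was nearly absent from all 6 Llgl-deleted libraries and steady in all 6 Llgl-intact libraries. It had 0, 4 and 2 counts in Llgl cKO Trp53 het libraries 1 to 3 and 2, 0 and 2 in Llgl cKO libraries 1 to 3, against 231, 138 and 254 in Trp53 het and 137, 234 and 242 in control. Every Llgl-intact library was above every Llgl-deleted library, and the 6 Llgl-intact libraries lay within 19.1 to 22.4 CPM. The level was 0.169 ± 0.171 CPM in Llgl cKO Trp53 het and 0.104 ± 0.0925 in Llgl cKO mice, against 20.1 ± 1.11 in Trp53 het and 20.6 ± 1.57 in control (SD, n = 3 each). The ratio of summed counts, scaled to library size, was 153-fold higher in Llgl-intact libraries (exact 95% binomial interval 83.1 to 321). Counting intervals here cover counting error only, not the spread between mice.

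Eno1 itself did not pass the test. It averaged 237 ± 51.0 CPM in Llgl-deleted libraries and 210 ± 6.63 in Llgl-intact libraries (n = 6 each; log2 fold change 0.16, 95% interval -0.07 to 0.39, edgeR adjusted p = 0.474, 0.282 to 0.727 over the alternatives). Eno1b made up 8.04% to 9.43% of the Eno1b and Eno1 counts of each Llgl-intact library and at most 0.110% in any Llgl-deleted library (Clopper-Pearson 95% interval of that value 0.0299% to 0.280%). Per kilobase of exon, Eno1b stood at 10.8 ± 0.659 CPM and Eno1 at 39.1 ± 1.23 CPM in Llgl-intact libraries. Here and below the length is that of the merged exons of all annotated transcripts, 1877 bases for Eno1b and 5379 for Eno1. It can exceed the length of the transcripts in use, so values per kilobase of a copy and its relative are not directly comparable. An annotated transcript, AC150274.2, overlaps Eno1b on the same strand, so counts in the overlap cannot be assigned to either with certainty.

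Both tested processed pseudogenes related to Eno1b fell with it. They were named after their values were seen. Gm4735 on chromosome 2, which differed from Eno1b at 3 of 1302 aligned bases, fell to 0.167 ± 0.128 CPM in Llgl-deleted libraries, against 2.70 ± 0.602 in Llgl-intact libraries (n = 6 each; log2 fold change -3.94, SE 0.42, edgeR adjusted p = 0.000597). RP23-349J3.8 on chromosome 3, listed as Gm5855 in GENCODE M21 and differing at 45 of 1306 bases, fell to 0.0751 ± 0.0800 CPM, against 3.34 ± 0.612 (log2 fold change -5.29, SE 0.43, edgeR adjusted p = 7.02e-05). Their summed counts were 13 against 168 and 6 against 200. How far reads from a single locus make up these 3 rows was not tested. The p-values of Gm4735 and RP23-349J3.8 therefore do not show changes separate from that of Eno1b.

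Upp1 (ENSMUSG00000020407; chr11:9118103-9136170, plus strand) was also low after Llgl deletion, but its level varied widely where it was present. It had 1, 0 and 0 counts in Llgl cKO Trp53 het libraries 1 to 3 and 2, 11 and 2 in Llgl cKO mice, against 84, 30 and 32 in Trp53 het and 60, 67 and 17 in control. The groups did not overlap, with a highest Llgl-deleted library of 0.801 CPM and a lowest Llgl-intact library of 1.37 CPM. Mean levels were 0.0261 ± 0.0453 CPM in Llgl cKO Trp53 het and 0.371 ± 0.372 in Llgl cKO mice, against 4.84 ± 2.70 in Trp53 het and 5.62 ± 4.22 in control (SD, n = 3 each). Summed counts were 22.5-fold higher in Llgl-intact libraries (13.6 to 39.9), and 59.0-fold higher (25.0 to 183) without Llgl cKO 2.

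Upp1 moved with hair markers across libraries. The 13 tested hair shaft and inner root sheath markers (keratins such as Krt71 and Krt31, and trichohyalin, Tchh) had a median log2 fold change of -2.89 in the average Llgl effect, beside -0.0026 over all tested genes, and 10 of 13 fell by the edgeR test, with 0 higher. Log2 fold changes were -3.82 for Krt33b (adjusted p = 0.0141), -2.95 for Tchh (adjusted p = 0.0144) and -2.89 for Krt31 (adjusted p = 0.0151). The count was 2 without Llgl cKO Trp53 het 2, 3 without Llgl cKO Trp53 het 3, 5 without Llgl cKO 1 or control 2, 6 without Llgl cKO 3 or Trp53 het 2, and 1 with no low-count filter. Summed over the list, these markers stood at 151 to 517 CPM in Llgl cKO Trp53 het and 1119 to 3688 CPM in Llgl cKO mice, against 2389 to 5931 CPM in Trp53 het and 1644 to 7341 CPM in control. Within each group the library with the most Upp1 was also the one with the most hair marker RNA. In Llgl cKO Trp53 het this rested on 1 count of Upp1, too few to rank its libraries. Llgl cKO 2 carried more hair marker RNA than Trp53 het 3 and control 3, at 3688 CPM against 2389 and 1644, but less Upp1, at 0.801 CPM against 2.41 and 1.37. The part of hair marker content in the Upp1 result was not tested. In bulk tissue, fewer cells of a type and less RNA per cell cannot be told apart.

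**Figure D1:**
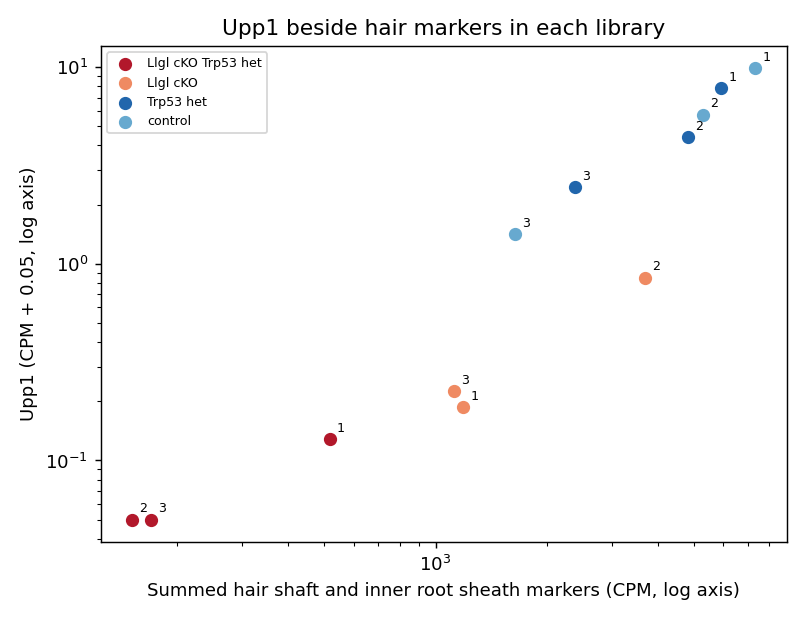
Upp1 (y axis, CPM + 0.05, log scale) against the summed level of hair shaft and root sheath markers (x axis, CPM, log scale), 1 point per library with its replicate number and coloured by group. The 6 Llgl-deleted libraries lie at or below 0.801 CPM of Upp1, while Llgl cKO 2 lies between the Llgl-intact libraries in hair marker RNA.

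Among other genes of uridine use there was a single call. Of the 17 tested genes of pyrimidine salvage and breakdown, 0 rose and 1 fell, beside 3.33% called over all tested genes. Their median log2 fold change was 0.03. The called gene was Nt5c3, a nucleotidase that dephosphorylates pyrimidine monophosphates. It fell by 0.88 on the log2 scale (edgeR adjusted p = 0.0149, at most 0.048 over the alternatives), to 120 ± 28.0 CPM in Llgl cKO Trp53 het and 110 ± 9.52 in Llgl cKO mice, against 212 ± 54.1 in Trp53 het and 213 ± 39.3 in control. Uck1, a uridine kinase, had a log2 fold change of -0.17 (adjusted p = 0.474). Upp2, the other uridine phosphorylase, averaged 0.637 ± 0.138 CPM in Llgl-deleted libraries and 0.994 ± 0.490 in Llgl-intact libraries (log2 fold change -0.56, adjusted p = 0.348). Without control 3 and Trp53 het 3, 3 genes of this list rose and 1 fell, and 2 were called without Llgl cKO 2.

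Catsperg2 (ENSMUSG00000049123; chr7:29697219-29727032, minus strand) was present only in trace in Llgl-intact libraries. It had 36, 21 and 18 counts in Llgl cKO Trp53 het libraries 1 to 3 and 19, 20 and 48 in Llgl cKO mice, against 0, 0 and 1 in Trp53 het and 0, 1 and 0 in control. All 6 Llgl-deleted libraries were higher than all 6 Llgl-intact libraries. The level was 2.04 ± 0.693 CPM in Llgl cKO Trp53 het and 2.33 ± 1.64 in Llgl cKO mice, against 0.0251 ± 0.0434 in Trp53 het and 0.0283 ± 0.0490 in control. The ratio of 162 to 2 summed counts, scaled to library size, was 65.3 (17.8 to 544), 102 without Trp53 het 3 and 106 without control 2.

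Catsperg1, which lies 0.516 Mb away on the same strand, did not pass the test. It averaged 24.9 ± 4.51 CPM in Llgl-deleted libraries and 21.4 ± 6.49 in Llgl-intact libraries (n = 6 each; log2 fold change 0.23, 95% interval -0.24 to 0.70, edgeR adjusted p = 0.623), and its log2 fold change was -0.02 without control 3 and Trp53 het 3. Catsperg2 held 5.51% to 11.8% of the counts of both genes in each Llgl-deleted library and at most 0.510% in any Llgl-intact library. Per kilobase of exon in Llgl-deleted libraries the level of Catsperg2 was 0.311 ± 0.162 CPM and that of Catsperg1 3.54 ± 0.641 CPM. Of 14 listed genes of the channel 9 were in the table and 4 were tested. By edgeR 0 rose and 0 fell, with 3 at an unadjusted p below 0.05 and 0 called by DESeq2, and the median log2 fold change was 0.35. On leaving out control 3 and Trp53 het 3, 1 fell. Beside Catsperg1 the tested genes were the pore subunits Catsper2 (log2 fold change 0.47, adjusted p = 0.272) and Catsper4 (-0.97, adjusted p = 0.274) and the auxiliary subunit Catsperd (1.04, adjusted p = 0.118). Catsper2 averaged 3.65 CPM in Llgl cKO Trp53 het and 3.83 in Llgl cKO mice, against 2.30 in Trp53 het and 3.13 in control, and Catsper4 0.935 and 1.001, against 2.114 and 1.80. The pore subunits Catsper1 and Catsper3 had 0 and at most 0.0566 CPM on average in any group, and Catsperb was at 0 in all 12 libraries. Male germ cell markers summed to at most 0.206 CPM in Llgl-deleted libraries and 0.340 CPM in Llgl-intact libraries, with Prm2, Tnp1 and Tnp2 at 0 throughout.

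**Figure D2:**
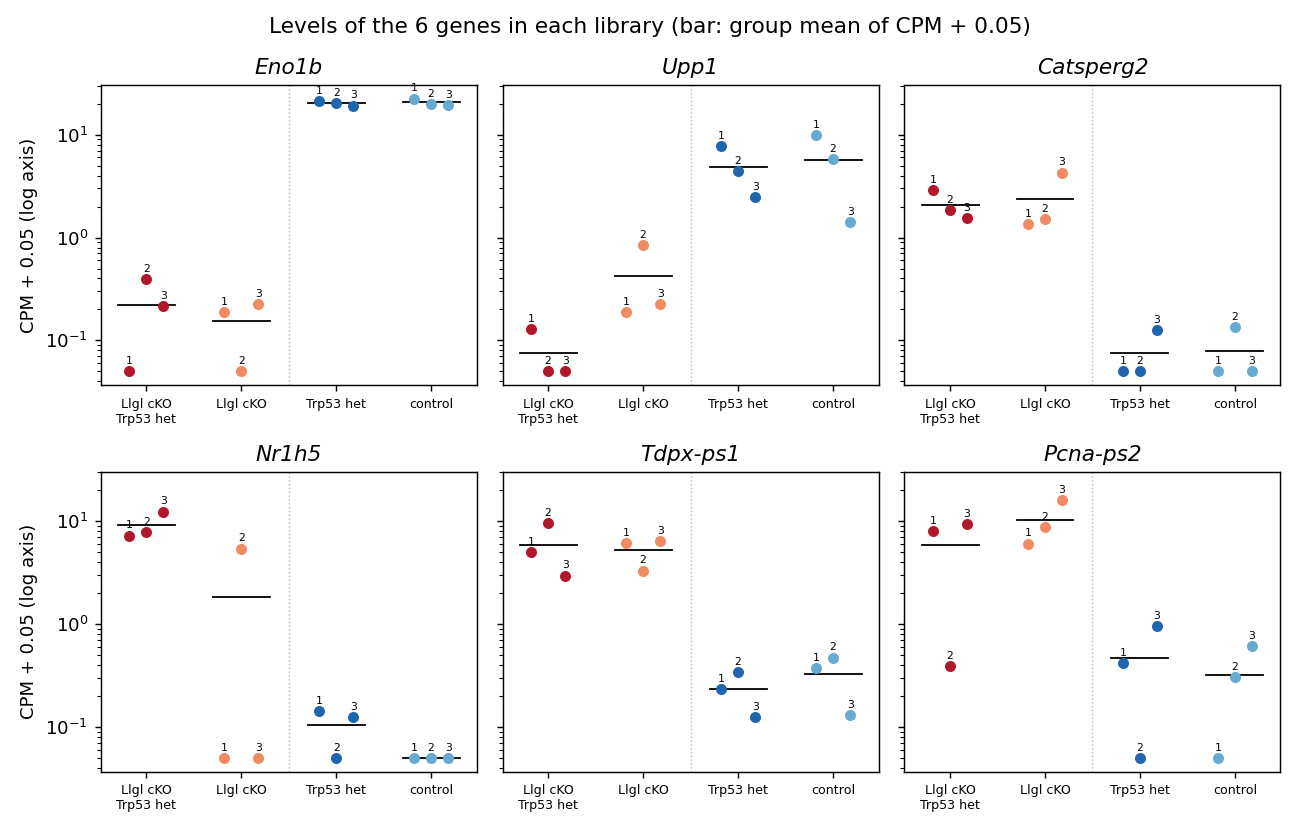
Level of each of the 6 genes in every library (y axis, CPM + 0.05, log scale), by group on the x axis, with replicate numbers on the points and a bar at the group mean. Eno1b and Upp1 are low in the 6 Llgl-deleted libraries, the other 4 are low in the 6 Llgl-intact libraries, and Nr1h5 in Llgl cKO 1 and 3 and Pcna-ps2 in Llgl cKO Trp53 het 2 lie at the level of the Llgl-intact libraries.

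Nr1h5 (ENSMUSG00000048938; chr3:102939658-102964133, minus strand) was high in only 4 of the 6 Llgl-deleted libraries. It had 92, 91 and 148 counts in Llgl cKO Trp53 het libraries 1 to 3 and 0, 74 and 0 in Llgl cKO mice, against 1, 0 and 1 in Trp53 het and 0, 0 and 0 in control. Llgl cKO 1 and Llgl cKO 3 therefore overlapped the Llgl-intact libraries, and the Llgl cKO level of 1.80 ± 3.11 CPM rested on a single library. A floor of 3 counts corresponds to 0.206 CPM in Llgl cKO 1 and 0.264 CPM in Llgl cKO 3. The level in Llgl cKO Trp53 het was 9.12 ± 2.84 CPM, against 0.0558 ± 0.0491 in Trp53 het and 0 counts in control, where the floor was 0.242 to 0.490 CPM per library. The ratio of 405 to 2 summed counts was 163 (44.9 to 1352), 269 without Trp53 het 1 and 256 without Trp53 het 3.

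Sycp1, the gene next to Nr1h5, encodes a meiotic synaptonemal complex protein and was counted in the same 4 libraries. It lies 3558 bp from Nr1h5 on the same strand, downstream of it. Sycp1 had 12, 3 and 11 counts in Llgl cKO Trp53 het libraries 1 to 3 and 0, 2 and 0 in Llgl cKO mice, against 0 in all 6 Llgl-intact libraries. With 28 counts in all it was not tested. Sike1, the nearest gene on the other side at 31575 bp, had a log2 fold change of -0.17 (edgeR adjusted p = 0.299). An annotated snRNA, Gm22826, overlaps Nr1h5 on the same strand.

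No tested relative of Nr1h5 was called. Nr1h4, which encodes FXR alpha, had 2 counts in the 6 Llgl-deleted libraries and 2 in the 6 Llgl-intact libraries and was not tested. Nr1h2, the broadly expressed oxysterol receptor LXR beta, averaged 102 ± 13.9 CPM in Llgl-deleted libraries and 95.04 ± 14.4 in Llgl-intact libraries (n = 6 each; log2 fold change 0.11, edgeR adjusted p = 0.687). Nr1h3, LXR alpha, had a log2 fold change of -1.03 (adjusted p = 0.159). Of the 12 tested genes among the nuclear receptor partners and sterol genes, edgeR and DESeq2 each called 0, with 2 at an unadjusted edgeR p below 0.05 and a median log2 fold change of -0.14. Without control 3 and Trp53 het 3, 2 fell, and 1 was called without Trp53 het 3 alone. Nr0b2, Slc51a and Slc51b, which bile acid receptors induce in liver and intestine, were at 0 in all 12 libraries.

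Tdpx-ps1 (ENSMUSG00000082431; chr1:99790429-99791025, minus strand) was high in every Llgl-deleted library. It had 64, 113 and 35 counts in Llgl cKO Trp53 het libraries 1 to 3 and 89, 45 and 73 in Llgl cKO mice, against 2, 2 and 1 in Trp53 het and 2, 5 and 1 in control. The groups did not overlap, at 2.93 to 9.64 CPM in Llgl-deleted libraries against 0.0752 to 0.425 CPM in Llgl-intact libraries. Mean levels were 5.86 ± 3.43 CPM in Llgl cKO Trp53 het and 5.27 ± 1.73 in Llgl cKO mice, against 0.183 ± 0.108 in Trp53 het and 0.277 ± 0.177 in control. Summed counts were 25.98-fold higher in Llgl-deleted libraries (15.0 to 49.2). The pseudogene lies within an intron of Cntnap5b on the opposite strand, and Cntnap5b had 0 counts in all 12 libraries.

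Its relative Prdx2 averaged 304 ± 25.1 CPM in Llgl-deleted libraries and 329 ± 15.1 in Llgl-intact libraries (n = 6 each; log2 fold change -0.12, 95% interval -0.28 to 0.04, edgeR adjusted p = 0.433). Tdpx-ps1 was 0.883% to 2.76% of the counts of both in Llgl-deleted libraries, against 0.0225% to 0.132% in Llgl-intact libraries. Per kilobase in Llgl-deleted libraries, Tdpx-ps1 stood at 9.32 ± 4.11 CPM and Prdx2 at 99.6 ± 8.23 CPM (merged exons of 597 and 3050 bases). Prdx1 had a log2 fold change of -0.10 (adjusted p = 0.59). Among the 13 tested peroxiredoxin and thioredoxin genes, 1 rose and 0 fell, beside 3.33% called over all tested genes. Their median log2 fold change was 0.07. The called gene was Txn1, the cytosolic thioredoxin, with a log2 fold change of 0.41 (adjusted p = 0.0497, 0.008 to 0.135 over the alternatives). Txn1 passed neither with the replicate block (0.063), nor under median-of-ratios scaling (0.0546), nor with no low-count filter, nor without any single library other than Llgl cKO Trp53 het 1 or Llgl cKO 2. Without control 3 and Trp53 het 3, 2 genes of the list rose and 1 fell.

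Pcna-ps2 (ENSMUSG00000067608; chr19:9283380-9284160, plus strand) was high in 5 of the 6 Llgl-deleted libraries. It had 102, 4 and 112 counts in Llgl cKO Trp53 het libraries 1 to 3 and 88, 121 and 182 in Llgl cKO mice, against 4, 0 and 12 in Trp53 het and 0, 3 and 7 in control. Llgl cKO Trp53 het 2, at 0.341 CPM, lay inside the Llgl-intact range of 0 to 0.902 CPM. Group levels were 5.90 ± 4.86 CPM in Llgl cKO Trp53 het and 10.3 ± 5.15 in Llgl cKO mice, against 0.424 ± 0.454 in Trp53 het and 0.273 ± 0.282 in control. Summed counts were 18.9-fold higher in Llgl-deleted libraries (12.8 to 29.1), and 40.7-fold (19.6 to 102) without control 3 and Trp53 het 3, which held 19 of the 26 Llgl-intact counts.

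Pcna was not called. It averaged 83.2 ± 11.4 CPM in Llgl-deleted libraries and 92.4 ± 33.7 in Llgl-intact libraries (n = 6 each; log2 fold change -0.16, 95% interval -0.62 to 0.31, edgeR adjusted p = 0.755), and its log2 fold change was 0.22 (adjusted p = 0.233) without control 3 and Trp53 het 3, which carried the most Pcna of all libraries. Pcna-ps2 was 8.05% to 16.8% of the counts of both genes in 5 Llgl-deleted libraries and 0.456% in Llgl cKO Trp53 het 2, against 0% to 0.706% in Llgl-intact libraries, where counts of 0 in Trp53 het 2 and control 1 allow up to 0.744% and 0.981% (Clopper-Pearson 95% interval). Within Llgl-intact libraries Pcna-ps2 was highest in Trp53 het 3 and control 3, the libraries with the most Pcna. Per kilobase in Llgl-deleted libraries, the level of Pcna-ps2 was 10.4 ± 6.51 CPM and that of Pcna 34.6 ± 4.73 CPM (merged exons of 781 and 2400 bases). Of the 15 tested genes of the replication clamp and its partners, edgeR and DESeq2 each called 0, with 0 at an unadjusted edgeR p below 0.05 and a median log2 fold change of 0.17. Without control 3 and Trp53 het 3, 11 of them rose and 1 fell.

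**Figure D3:**
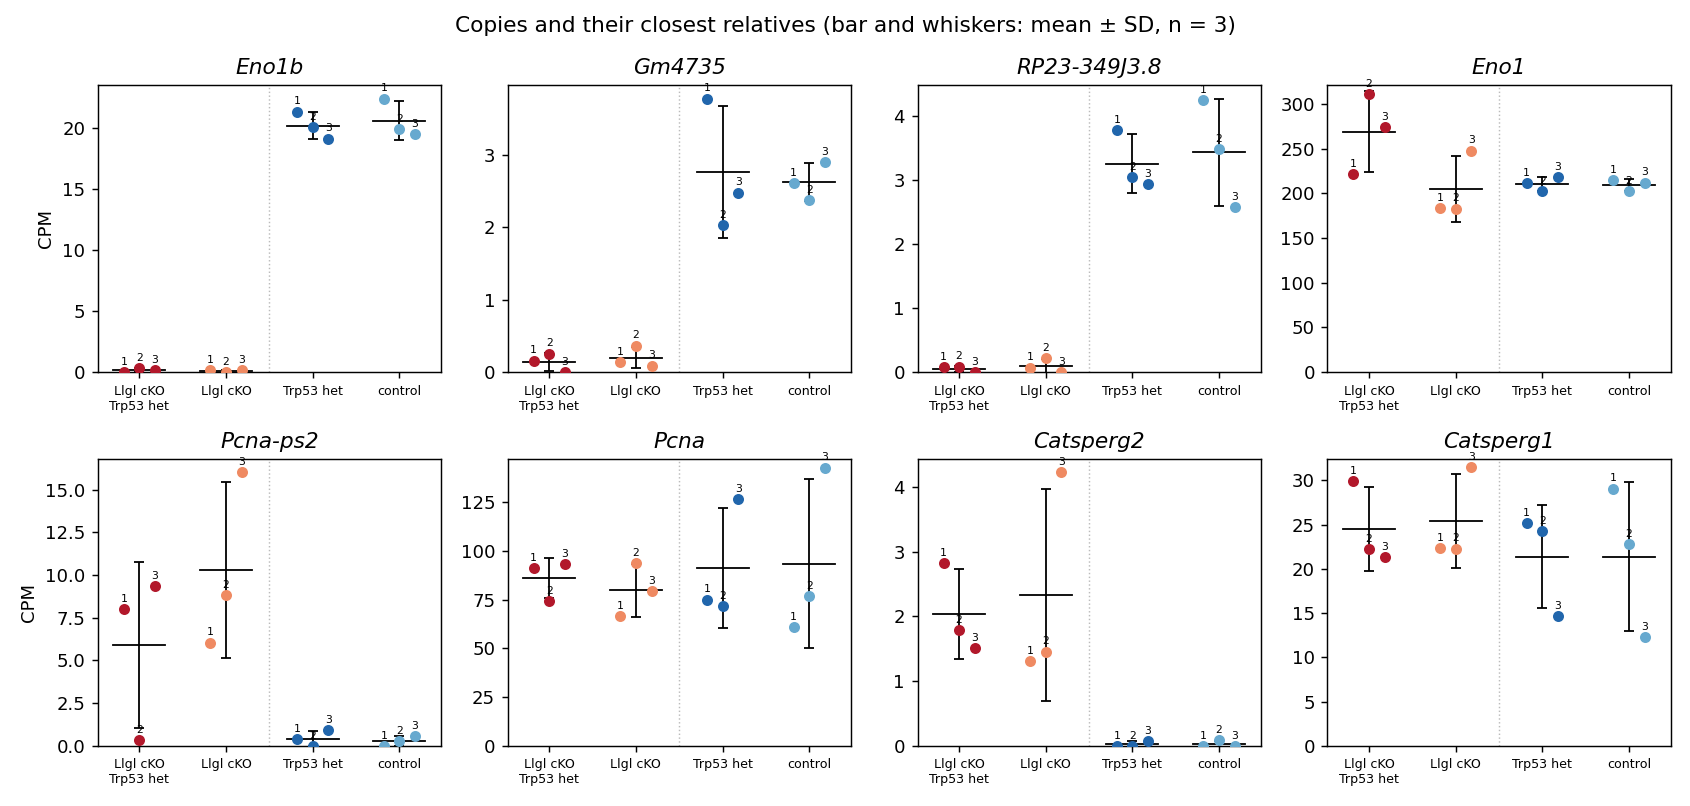
Eno1b, Pcna-ps2 and Catsperg2 beside their closest relatives, with CPM on a linear y axis from 0 and groups on the x axis. Points are libraries with replicate numbers, and bars with whiskers are mean ± SD (n = 3). Eno1, Pcna and Catsperg1 overlap between Llgl-deleted and Llgl-intact libraries, while Gm4735 and RP23-349J3.8 are low in the same 6 libraries as Eno1b.

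Of the 18 tested glycolysis genes around Eno1, 0 rose and 1 fell, beside 3.33% called over all tested genes. Unadjusted edgeR p-values were below 0.05 for 7 of the 18, beside 2661 of all 14582. Log2 fold changes were below 0 for 13 of the 18, with a median of -0.15. DESeq2 called 2, and without control 3 and Trp53 het 3, 2 rose and 2 fell. Pfkp, the platelet isoform of phosphofructokinase, fell by 0.74 on the log2 scale (edgeR adjusted p = 0.0352, 0.00198 to 0.0911 over the alternatives). It was not called without Llgl cKO Trp53 het 1, 2 or 3, Llgl cKO 1 or 3, Trp53 het 1 or 2, or control 1 or 2, in turn. Across the 14 tested parents and paralogues of the 6 genes, edgeR and DESeq2 each called 0, with 3 at an unadjusted edgeR p below 0.05 and a median log2 fold change of -0.03. Without control 3 and Trp53 het 3, 1 rose and 1 fell, and 1 was called without Trp53 het 3 alone.

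Loss of a Trp53 allele is a contrast that did not choose the genes. In Trp53 het against control 0 of 14582 genes (0%) were called by edgeR and 0 by DESeq2, with 63 at an unadjusted p below 0.05. Eno1b had a log2 fold change of -0.03 there (95% interval -0.73 to 0.67) and Upp1 of -0.18 (-1.65 to 1.29), each with an adjusted p of 1. In Llgl cKO Trp53 het against Llgl cKO edgeR called 0 genes (0%) and DESeq2 48, with 747 at an unadjusted edgeR p below 0.05. Catsperg2 differed by -0.17 on the log2 scale (-1.29 to 0.95) and Tdpx-ps1 by 0.15 (-0.83 to 1.14), both with an adjusted p of 1. With single libraries left out these ran from -0.48 to 0.56 and from -0.40 to 0.48, so neither has a settled sign. Pcna-ps2 differed by -0.79 (-2.61 to 1.02, adjusted p = 1).

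Among the genes that were high where Llgl was deleted, Nr1h5 had the widest Trp53 difference. Its level was higher in Llgl cKO Trp53 het than in Llgl cKO, with a log2 difference of 2.32 (95% interval -0.36 to 5.002, edgeR adjusted p = 1, unadjusted 0.0821). Each library of the Llgl cKO Trp53 het group was above each of the Llgl cKO group. Without Llgl cKO 2 the estimate was 9.68 (adjusted p = 0.063). Upp1, near absent in this state, had 1 count in Llgl cKO Trp53 het and 15 in Llgl cKO mice, 11 of these in Llgl cKO 2, too few to read a difference from. In the interaction of Llgl and Trp53, edgeR and DESeq2 each called 0 genes (0%), with 428 at an unadjusted edgeR p below 0.05. All 6 genes had an adjusted p of 1 in it. By choice each is near absent in a Llgl state, so its Trp53 difference there rests on few counts. For Nr1h5 these were 2 counts in Trp53 het and 0 in control. The interaction therefore cannot decide whether the Llgl difference of these genes depends on Trp53.

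Ratios of summed counts within each Trp53 genotype are given for their size, since the choice of the genes fixes their direction. Eno1b was 122-fold higher in Trp53 het than in Llgl cKO Trp53 het mice and 200.5-fold higher in control than in Llgl cKO. Upp1 was 171-fold (30.3 to 6817) and 12.6-fold (7.37 to 23.0) higher where Llgl was intact. In the same order of Trp53 het and Trp53-intact mice, the ratios in favour of the Llgl-deleted libraries were 63.9 and 66.5 for Catsperg2, 36.1 and 19.8 for Tdpx-ps1 and 11.6 and 29.9 for Pcna-ps2. Nr1h5 was 141-fold (38.7 to 1169) higher in Llgl cKO Trp53 het than in Trp53 het. Summed over Llgl cKO it was at least 18.9-fold higher than in control, taking 3 counts over the control group as the floor. That bound rests on Llgl cKO 2 alone, with 74 counts, since Llgl cKO 1 and Llgl cKO 3 had 0 counts, as did control.

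Genes around the 6 loci were read in the average Llgl effect. Within 1 Mb on either side the table held 273 genes, of which 138 were tested: 70 near Catsperg2, 46 near Pcna-ps2, 16 near Nr1h5, 4 near Upp1, 2 near Eno1b and 0 near Tdpx-ps1. Of these, 0 rose and 1 fell, beside 485 of 14582 (3.33%) called over all tested genes. The median log2 fold change was -0.0041, beside -0.0026 over all tested genes. The called neighbour was Capn12, which encodes a calpain protease expressed in hair follicles and lies 803656 bp from Catsperg2. It fell to 9.37 ± 3.15 CPM in Llgl-deleted libraries, against 20.7 ± 3.46 in Llgl-intact libraries (n = 6 each; log2 fold change -1.17, SE 0.20, edgeR adjusted p = 0.0121, at most 0.0401 over the alternatives). Among nearest neighbours, Sema6a on the side of Eno1b had a log2 fold change of 0.05 (adjusted p = 0.856) and Gm11992 beside Upp1 of -0.12 (adjusted p = 0.787). Gm9750, Gm11993 and the nearest genes on both sides of Catsperg2 and Tdpx-ps1 were too low to test.

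**Figure D4:**
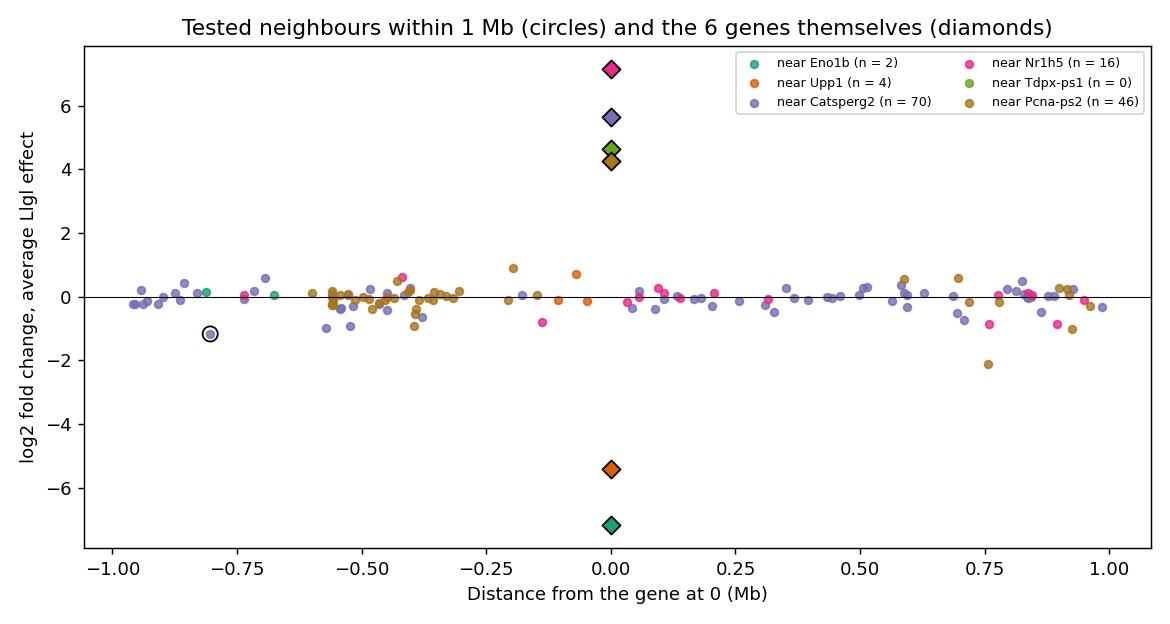
Log2 fold change in the average Llgl effect (y axis) of the 138 tested genes within 1 Mb against their distance from the gene at 0 (x axis, Mb), with the 6 genes as diamonds. The 6 diamonds reach -7.18 and 7.16 as fitted, values that shift with the prior count, while neighbours stay between -2.12 and 0.89, and the ringed point is Capn12.

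The 6 genes were set beside every gene with an on-off difference between the Llgl-deleted and Llgl-intact libraries. Strain background and litter were not given, so their part in such differences was not tested. The criterion asked that all 6 libraries of a state lie below all 6 of the other, with means at least 10 times apart and the higher mean at least 0.5 CPM. Of 15201 genes with such a mean, 48 (0.316%) met it, 20 high in Llgl-deleted libraries (0.132%) and 28 high in Llgl-intact libraries (0.184%). Eno1b, Upp1, Catsperg2 and Tdpx-ps1 were among the 48, and Nr1h5 and Pcna-ps2 were among 71 genes 10-fold apart whose libraries overlapped. Llgl2, the deleted gene, met it as well. Annotated pseudogenes made up 18 of the 48 (37.5%) and 461 of the 15201 (3.03%). They were 14 of the 20 genes high in Llgl-deleted and 4 of the 28 high in Llgl-intact libraries. Near-identical copies were counted separately though they may share reads, and the sets were not matched for level. An excess of pseudogenes was not tested.

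The most abundant genes of this kind, members aside, were not pseudogenes with the exception of Gm6166. Gm6166, a processed pseudogene on chromosome 9, averaged 209 CPM in Llgl-deleted libraries against 6.18 CPM in Llgl-intact libraries. Lars2, the mitochondrial leucyl-tRNA synthetase, averaged 312 CPM in Llgl-deleted libraries against 3190 CPM in Llgl-intact libraries, where it ranged from 670 to 10473 CPM. Gm23935 and Gm24187, both annotated as miRNA genes, averaged 49.96 and 31.1 CPM in Llgl-deleted libraries against 590 and 398 CPM in Llgl-intact libraries. Stfa1, a stefin cysteine protease inhibitor, averaged 1.84 CPM in Llgl-deleted libraries against 211 CPM in Llgl-intact libraries. Chromosomes 11 and 4 each held 7 of the 48 genes (14.6%), beside 8.57% and 6.51% of the 15201. Those on chromosome 11 include Llgl2 itself and Upp1. Those on chromosome 4 include Skint3, Skint4, Skint6 and Skint9 of a single gene family. Genes of a family were counted separately, and an excess on either chromosome was not tested. Chromosome 11 also carries Llgl1, Llgl2 and Trp53, and Upp1 lies 51.6 Mb from Llgl1, 60.5 Mb from Trp53 and 107 Mb from Llgl2 on it.

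**Figure D5:**
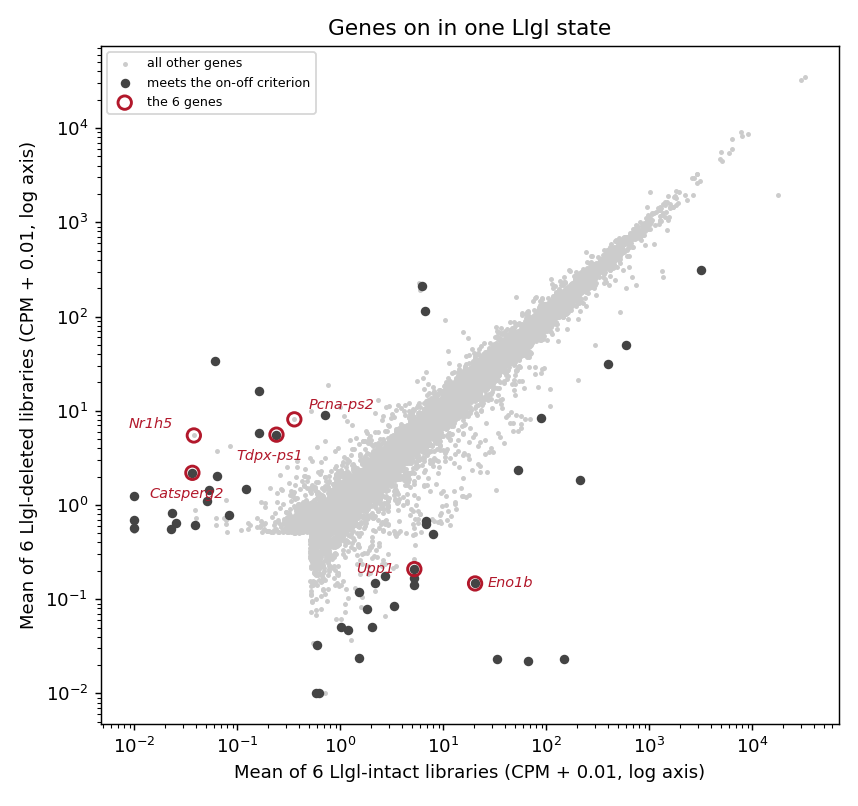
Mean level of each gene in the 6 Llgl-deleted libraries (y axis) against the 6 Llgl-intact libraries (x axis), both as CPM + 0.01 on log scales. Grey points are all genes that reach 0.5 CPM on average in a state, dark points the 48 that met the criterion, and rings the 6 genes, of which Nr1h5 and Pcna-ps2 did not meet it.

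Pcna-ps2 shared its low library with other pseudogenes. Among 37 genes at least 10-fold higher in Llgl-deleted libraries, 20 had no Llgl-deleted library within the Llgl-intact range. In 5 only Llgl cKO Trp53 het 2 fell there, and these were Pcna-ps2, Gm8730, Gm9625, Gm14165 and Gm13123, named after their values were seen. Gm8730 had 5163, 87 and 4568 counts in Llgl cKO Trp53 het libraries 1 to 3 and 2862, 2496 and 2036 in Llgl cKO mice, against 65, 38 and 44 in Trp53 het and 60, 60 and 66 in control. Gm9625 followed with 75 counts in Llgl cKO Trp53 het 2 and 1692 to 4479 in the other 5 Llgl-deleted libraries, against 35 to 80 in Llgl-intact libraries. Wsb2-ps had 1 count in that library and 10 to 15 in the other 5, against 0 to 1 in Llgl-intact libraries. Gm8730, Gm9625 and Gm14165 are processed pseudogenes of similar length, at 954, 955 and 952 bases. How far these rows share reads with each other was not tested, so they may not be separate cases. Nr1h5 was the only gene of the 37 that was low in exactly Llgl cKO 1 and Llgl cKO 3.

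Genes with the most similar profile were found by Pearson correlation of log2 CPM over all 12 libraries. The libraries form an on and an off cluster, so for the 4 genes whose libraries did not overlap r within the 6 libraries where the gene was on is given too, as a description. Nearest to Eno1b were Llgl2 (r = 0.99 over 12 libraries, 0.87 over 6), Stfa1 (0.99 and -0.89) and Skint9 (0.98 and -0.25), so the likeness of the last 2 lay between the Llgl states and not within the Llgl-intact libraries. Upp1 was nearest to Nxpe3 (0.97 and 0.94) and the hair keratin-associated genes Krtap4-9 (0.97 and 0.98) and Krtap5-5 (0.97 and 0.98). Krtap4-9 stood at 0 to 2.48 CPM in Llgl-deleted libraries against 2.09 to 25.97 CPM in Llgl-intact libraries. Catsperg2 and Tdpx-ps1 were both nearest to Dera, a deoxyribose phosphate aldolase, with r of 0.95 and 0.94 over 12 libraries but 0.10 and 0.24 over the 6 where they were on. Dera stood at 37.2 to 45.8 CPM in Llgl-deleted libraries against 17.5 to 22.3 CPM in Llgl-intact libraries. Over 12 libraries Nr1h5 was nearest to Eri3 (0.89), Xrcc1 (0.88) and Phka2 (0.87), and Pcna-ps2 to Wsb2-ps (0.95). Genes with a predicted or clone name were not considered, and each r shares libraries with the others.

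Differentiation and cell type markers were read beside these results. Of the 10 tested rows of differentiated keratinocyte markers 1 rose and 1 fell, with 5 at an unadjusted p below 0.05. Ivl, which encodes the cornified envelope protein involucrin, had a log2 fold change of -0.93 (edgeR adjusted p = 0.0317), and a row of the table that carries the symbol Flg (ENSMUSG00000102395) had one of 0.91 (adjusted p = 0.0315). The table has several rows with that symbol, the filaggrin gene, and the other 4 that were tested were not called, with log2 fold changes below 0. DESeq2 called 5 of the list, 1 rose and 2 fell without control 3 and Trp53 het 3, and 0 were called without Llgl cKO Trp53 het 2, Llgl cKO 1, Trp53 het 2, control 1 or control 2. The list summed to 55025 to 107940 CPM in Llgl-deleted libraries and 65205 to 85592 CPM in Llgl-intact libraries. T cell markers summed to 6.38 to 20.4 CPM in Llgl-deleted libraries and 12.9 to 50.6 CPM in Llgl-intact libraries, and 2 of 7 tested fell, Il2rb and Cd3g with log2 fold changes of -2.44 and -2.32 (edgeR adjusted p = 0.0228 and 0.0352), or 6 of 7 without control 3 and Trp53 het 3. Leaving out Trp53 het 3 alone gave 4 T cell calls. A single call was left on omitting control 1, Llgl cKO 2 or 3, or Llgl cKO Trp53 het 3, and 0 on omitting control 2, Trp53 het 1 or 2, Llgl cKO 1, or Llgl cKO Trp53 het 2. Both tested adipocyte markers fell, Fabp4 and Retn with log2 fold changes of -2.94 and -3.83 (adjusted p = 0.0245 and 0.0378), and the list summed to 0.335 to 3.86 CPM in Llgl-deleted libraries and 2.09 to 29.1 CPM in Llgl-intact libraries. The adipocyte count was 1 without Llgl cKO 2, 2 without Trp53 het 3 or control 3, and 0 without any other single library. Of the 5 tested macrophage and Langerhans cell markers, the 4 of fibroblasts and the 5 of melanocytes, edgeR and DESeq2 each called 0, and unadjusted edgeR p-values were below 0.05 for 1, 0 and 0 of them. When control 3 and Trp53 het 3 were left out, 1 fibroblast marker rose and 1 basal keratinocyte marker fell. Endothelial and skeletal muscle markers were too low to test, at no more than 1.25 and 1.61 CPM summed in any library. The part of these cell types in the levels of the 6 genes was not tested.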

How the data were processed

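Total RNA of newborn epidermis was made into TruSeq Stranded mRNA libraries, per the labels' protocols. The submitters' processing notes name GRCm38, STAR, featureCounts 1.6.4 and also DESeq2 2.11.40.8. Annotation release, read length, strand setting and filters were not given in the sources used here. The values deposited by the authors are raw counts for each gene in each library, not normalized, and all columns were used.

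The tests used edgeR 4.0.16 in R 4.3.3: TMM scaling, filterByExpr (minimum count 10), and a robust quasi-likelihood fit of 4 group means to 12 libraries (8 residual degrees of freedom, biological coefficient of variation 23.8%). Benjamini-Hochberg adjustment ran over all 14582 tested genes, and the fit was tested on simulated data. By the stated design each library is a mouse, so p-values measure the spread between mice. The 6 genes, the gene lists and the comparisons were chosen with earlier results of these data known. The other genes named were the closest relatives, list members and neighbours with the smallest adjusted p, the 3 best-correlated tested genes without a predicted or clone name, and the 5 most abundant genes meeting the on-off criterion, unless the text says that they were named after their values were seen. Positions and transcripts came from GENCODE M21, which held 45229 of 46078 identifiers. Copies were found with BLAST 2.17.0 and aligned with Biopython 1.88. Alternatives were DESeq2 1.42.0, median-of-ratios scaling, other filters, prior counts, replicate number as a block, and left-out libraries. Same-numbered control and Trp53 het libraries deviated together (correlations 0.62, 0.21 and 0.82), with no pairing given in the labels.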

Additional observations from a re-analysis of the deposited data

Results flagged for a closer look

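Upp1 in Llgl cKO 2 stood apart from the other 5 Llgl-deleted libraries at 0.801 CPM, with 11 counts, where the next highest held 0.176 CPM. Its gap to that library, as a share of the range of the 6, was above Dixon's critical value for 6 samples. It was the only sample that did so among the 12 combinations of a gene and a Llgl state examined. Chance gives such a gap in about 1 of 20 groups of normally distributed values, a rate that may not hold for counts this low. Llgl cKO 2 also carried the most hair marker RNA of the 6 Llgl-deleted libraries, 3688 CPM in sum, and the part of that in its Upp1 level was not tested.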

How the results depend on the processing

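The sign of the 6 genes in the average Llgl effect is fixed by how they were chosen and is no sign of stability. The size of their log2 fold changes depended on the prior count and on single libraries: over 20 alternatives it ran from -7.65 to -5.19 for Eno1b, -6.30 to -3.20 for Upp1, 2.48 to 6.66 for Catsperg2, 3.32 to 7.44 for Nr1h5, 3.19 to 4.97 for Tdpx-ps1 and 3.38 to 5.27 for Pcna-ps2. The value of Nr1h5 was 3.46 without Llgl cKO 2. The number of genes called in that effect was 485, 1016 by DESeq2, 2334 without control 3 and Trp53 het 3, and 164 to 697 with single libraries left out. It was lowest without control 2 (164), Llgl cKO 1 (187), Llgl cKO Trp53 het 2 (191) or 3 (203), Trp53 het 2 (225) or 1 (240) and control 1 (311). With replicate number as a block 664 were called, and the call of Txn1 was lost. Those of Llgl1, Llgl2, Gm4735, Capn12 and Nt5c3 were kept. Named marker genes, such as Krt31, Ivl, Il2rb and Fabp4, were followed only as counts per list, so whether each call held with the block was not tested. In Trp53 het against control, 0 to 1 genes were called with single libraries left out and 1 without control 3 and Trp53 het 3. In Llgl cKO Trp53 het against Llgl cKO the counts were 0 to 1 and 1, and 48 by DESeq2. The interaction gave 0 in all 18 alternatives. Of the lists' counts 75 moved by over 1.5 times and 249 did not. The on-off criterion was met by 48 genes, and by 46 on library totals without TMM, an alternative added after the data were examined. In groups other than control and Trp53 het, same-numbered libraries did not all deviate together (correlations -0.35 to 0.18). In Trp53 het against control, with single libraries left out, Eno1b ran from -0.07 to 0.04 and Upp1 from -0.71 to 0.46 on the log2 scale. In Llgl cKO Trp53 het against Llgl cKO, Nr1h5 ran from 1.73 to 9.68, Pcna-ps2 from -1.29 to -0.24 and Upp1 from -5.13 to -2.11. Low counts in the state where a gene is near absent limit how large any ratio can be shown to be.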
